A study of Mus musculus with 6 samples.

Results

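Myod1, Myog, Myf5, Myf6, Pax7 and the muscle acetylcholine receptor subunit genes Chrna1, Chrnb1, Chrnd, Chrng and Chrne were followed through bulk RNA sequencing of the mouse uterus. They are 10 of the 26018 genes in the deposited table, 5 myogenic factors and 5 receptor subunits, found by their symbols. The 2 families were chosen by function together with measured values, since an earlier fit of these libraries had shown a rise of Myod1 in the knockout. The differences of the 10 genes between the groups are therefore given as a description, without a test. The samples were uteri of untreated, body-weight-matched female mice aged 6 weeks, with 1 library per animal. The control group held 3 Tcf21 f/f animals, which carry floxed copies of Tcf21. The conditional knockout (cKO) group held 3 Tcf21 d/d animals, in which Tcf21 is deleted. Neither the Cre driver nor the deleted part of the gene is stated in the sources used here. TCF21 belongs to the same class of DNA-binding proteins as MYOD (basic helix-loop-helix), and the study asked which genes it may act on in the developing uterus.

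Myogenic factors are transcription factors that set the fate of skeletal muscle cells. PAX7 marks satellite cells, the stem cells of muscle. MYF5 and MYOD commit them to the lineage, myogenin drives their differentiation into fibres, and MYF6 (MRF4) acts mainly in formed fibres. The muscle acetylcholine receptor is the channel at the neuromuscular junction that opens on release of acetylcholine. It combines alpha, beta and delta subunits with gamma in fetal or denervated muscle, or with epsilon in mature innervated muscle. Its subunit genes are known targets of the myogenic factors, which bind the E-box, CANNTG. Uterine muscle is smooth muscle and does not build on this programme.

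The promoter windows are shown because the E-box is the sequence through which the 2 families are known to be linked. RefSeq windows (GRCm38.p6) were matched for 7 of the 10 genes, and not for Myod1, Myf6 and Chrnd. The 250 bases before each start were searched for CANNTG, which reads the same on both strands. Chrna1, Chrnb1 and Chrng held 3 matches each, Myog held 2, Chrne 1, and Myf5 and Pax7 none. Among 27025 promoters of that length, 12.1% held at least 3 matches, 31.7% at least 2 and 66.0% at least 1. Chrna1 and Chrng each held 2 copies of the form CAGCTG, which 1.16% of all promoters did. Chrne also held 1 copy of the N-box letters CCGGAA, searched on both strands without overlap with an E-box, against 12.2% of all promoters with at least 1. A match is a description of the letters, not evidence of binding. The start is that of RefSeq. It equals the gene start in the deposited table for Chrna1 and lies inside the table's gene interval for Chrnb1, Chrne, Myog and Chrng, and the whole Chrng window lies inside that interval. The last 200 bases before the RefSeq start follow 5′ to 3′ on the gene's strand, with CANNTG and CCGGAA in capitals.
Chrna1, chr2:73580339-73580538, minus strand: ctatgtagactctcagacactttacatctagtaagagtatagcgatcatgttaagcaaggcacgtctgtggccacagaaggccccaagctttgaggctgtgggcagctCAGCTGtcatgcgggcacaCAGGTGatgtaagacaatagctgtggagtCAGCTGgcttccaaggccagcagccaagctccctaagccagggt
Chrng, chr1:87205611-87205810, plus strand: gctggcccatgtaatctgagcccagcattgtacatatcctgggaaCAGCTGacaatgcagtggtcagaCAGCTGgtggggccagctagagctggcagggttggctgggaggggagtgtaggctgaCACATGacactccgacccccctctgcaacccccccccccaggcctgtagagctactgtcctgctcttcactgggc
Chrnb1, chr11:69795938-69796137, minus strand: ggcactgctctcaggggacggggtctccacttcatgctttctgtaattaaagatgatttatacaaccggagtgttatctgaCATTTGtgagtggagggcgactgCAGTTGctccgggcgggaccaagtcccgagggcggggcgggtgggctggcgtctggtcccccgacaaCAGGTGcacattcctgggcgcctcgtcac
Chrne, chr11:70619195-70619394, minus strand: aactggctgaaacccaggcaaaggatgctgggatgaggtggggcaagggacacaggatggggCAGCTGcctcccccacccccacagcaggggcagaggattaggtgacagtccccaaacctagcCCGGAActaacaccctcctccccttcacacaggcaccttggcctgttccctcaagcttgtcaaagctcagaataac
Myog, chr1:134289804-134290003, plus strand: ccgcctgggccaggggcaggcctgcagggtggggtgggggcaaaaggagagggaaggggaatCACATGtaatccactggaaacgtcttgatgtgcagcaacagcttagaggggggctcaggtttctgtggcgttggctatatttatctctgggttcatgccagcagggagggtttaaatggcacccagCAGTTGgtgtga

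The libraries held 14584450 to 16579573 reads on genes. The targeted gene, Tcf21, had normalised read counts of 341.4, 151.9 and 144.1 in the controls and 26.0, 0 and 0 in cKO replicates 1 to 3, where 0 reads allow values of up to 2.925 and 3.315. All 3 cKO libraries lay below the controls for Tcf21. In the limma fit described below its log2 fold change was -6.03 ± 1.25 (SE), at an adjusted p of 0.0765. The authors' deposited comparison gives it an adjusted p of 0.284, so neither called it at 0.05. The tissue label was checked against markers: 8 uterine genes took 0.0131 to 0.0620% of control reads and 0.00725 to 0.0146% of cKO reads. Foxa2, a gene of uterine glands, had 73 reads in control replicate 1, 4 in control replicate 2 and none elsewhere. In the same libraries 29 structural genes of skeletal muscle took 3.59 to 6.64% of control reads and 6.98 to 10.02% of cKO reads. Skeletal muscle transcripts were therefore abundant in tissue labelled uterus, and their summed share was higher in every cKO library than in any control. The libraries do not say which cells hold these transcripts, and more muscle cells and more RNA per cell cannot be told apart in bulk tissue. Smooth muscle markers, 8 in all, took 0.596 to 0.949% of control and 0.0775 to 0.0868% of cKO reads. In control replicate 1 liver markers took 1.10% of reads, and in the other 5 libraries they stayed at or below 0.00558%. Control replicate 1 also had the highest share of uterine markers (0.0620%) and most of the Foxa2 reads. Whether liver transcripts add to these uterine marker reads was not tested. The 4 macrophage markers took 0.0429 to 0.0584% of control and 0.0644 to 0.0875% of cKO reads, while the 5 Schwann cell markers overlapped between the groups (0.0157 to 0.0339% and 0.0316 to 0.0502%). In control replicate 3 the 6 autonomic and enteric neuron markers took 0.0145% of reads, against 0.00111 to 0.00283% in the other libraries. The part of these shifts and differences in the results below was not tested.

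All 10 genes were read in every library, with at least 23 reads each, and all passed the filter on low reads. Every one had a higher mean in the cKO group. The median log2 fold change over the 10 was 0.86, beside 0.0020 over the 16314 genes tested. In 5 of the 10, Myod1, Myf6, Pax7, Chrna1 and Chrnb1, the 3 cKO libraries lay above all 3 controls, a separation that 9.04% of all tested genes showed in that direction. The fit across all genes (limma on log2(value + 1), Benjamini-Hochberg adjusted p under 0.05) called 1 of the 10, Myod1, and it called 0.276% of all tested genes higher. The authors' deposited table lists 4 of the 10 at an adjusted p under 0.05, Myod1, Myf6, Chrna1 and Chrnb1, and 0.872% of its genes as higher at that level. Since the contrast had a part in the choice of genes, nothing is read from these counts.

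**Figure D1:**
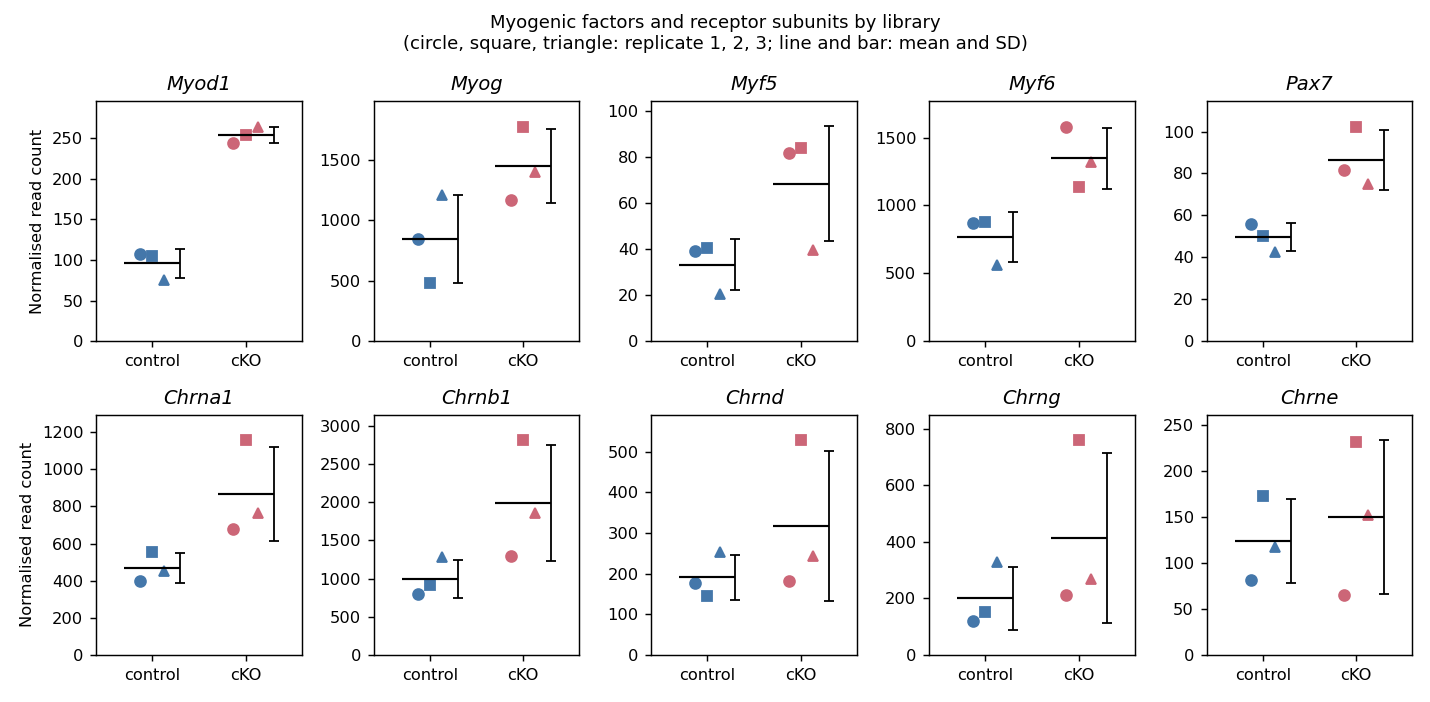
Normalised read count (y axis, linear from 0) of each gene in the 3 control and 3 cKO libraries, with the group mean as a line and the SD as a bar. The Myod1 points lie at 75.6 to 107.3 in controls and 243.5 to 264.1 in cKO animals, while the 5 receptor subunits have their highest point in cKO replicate 2.

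Myod1 (ENSMUSG00000009471, chromosome 7, 46376474 to 46379099, plus strand, GRCm38, 3 exons) encodes the factor that can turn other cell types into muscle. In control replicates 1 to 3 it had normalised read counts of 107.3, 104.3 and 75.6. In cKO replicates 1 to 3 it had 243.5, 254.5 and 264.1. The groups stood well apart, and the cKO values lay close together, with a coefficient of variation of 4.06% against 18.3% in controls. The cKO mean of 254 ± 10.3 (SD, n = 3) was 2.65 times the control mean of 95.7 ± 17.5. The log2 fold change was 1.41 ± 0.25 (SE), with a 95% interval from 0.86 to 1.97. Leaving out 1 library at a time moved it between 1.255 and 1.505. The limma call was absent without cKO replicate 1, 2 or 3 (adjusted p = 0.129, 0.187 and 0.221), with log2 fold changes of 1.45, 1.41 and 1.39. In those fits limma called 2, 3 and 1 genes higher in all.

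Pax7 and Myf5, the factors of satellite cells and of early commitment, were the least abundant. Pax7 (chromosome 4, 139737062 to 139833528) was at 56.1, 50.3 and 42.7 in controls and at 81.8, 102.4 and 75.1 in cKO animals. The groups did not overlap, and the log2 fold change was 0.78 ± 0.33. Myf5 (chromosome 10, 107482908 to 107486134) was at 39.0, 40.4 and 20.5 in controls and at 81.8, 83.9 and 39.8 in cKO animals. Its cKO replicate 3 lay within the control range, and the log2 fold change of 1.00 ± 0.47 had an interval from -0.06 to 2.07. The ratio of Pax7 to Myod1 values was 0.523, 0.483 and 0.565 in the control and 0.336, 0.402 and 0.285 in the cKO libraries. All 3 cKO ratios were thus below all 3 control ratios, since Myod1 differed more than Pax7 did. Control replicate 3 had the lowest value of Myod1, Myf5, Myf6 and Pax7.

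Myog and Myf6, the factors of differentiation and of formed fibres, were the most abundant of the 10 genes per exon length. Myog (chromosome 1, 134289989 to 134292548) was at 846.2, 484.4 and 1213.5 in controls and at 1172.7, 1778.6 and 1398.8 in cKO animals. Control replicate 3 lay above cKO replicate 1, so the groups overlapped. The log2 fold change of Myog was 0.85 ± 0.32, and it was 0.50 without control replicate 2. Myf6 lies next to Myf5 on chromosome 10 (107492853 to 107494737). It was at 868.1, 875.4 and 558.7 in controls and at 1581.5, 1135.0 and 1322.6 in cKO animals. The groups did not overlap, and the log2 fold change was 0.83 ± 0.22. Myog was highest in cKO replicate 2, the cKO library in which Myf6 was lowest.

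The alpha and beta subunit genes carried the clearest differences among the receptor genes. Chrna1 (chromosome 2, 73563215 to 73580338), whose product holds most of the acetylcholine binding site, was at 396.3, 555.4 and 449.3 in controls. In cKO animals it was at 678.3, 1155.5 and 766.8, above every control, with a log2 fold change of 0.87 ± 0.23. Stretches of Chrna1 transcripts resemble transcripts of 73 other genes (95% identity or more, up to 202 bases), so reads from there are uncertain. The remaining 9 genes had no such match. Chrnb1 (chromosome 11, 69784036 to 69795943) was at 797.4, 912.2 and 1277.5 in controls and at 1299.0, 2811.3 and 1862.9 in cKO animals. Its lowest cKO value was just above its highest control value, and the log2 fold change was 0.96 ± 0.29.

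The delta, gamma and epsilon genes overlapped between the groups. Chrnd and Chrng are neighbours on chromosome 1 (87190607 to 87200070 and 87204657 to 87212694). Chrnd was at 176.8, 144.7 and 251.8 in controls and at 181.2, 527.5 and 244.2 in cKO animals. Chrng, the fetal subunit, was at 119.5, 151.0 and 328.3 in controls and at 211.9, 758.6 and 269.6 in cKO animals. For both genes only cKO replicate 2 lay above all controls. The log2 fold changes were 0.62 ± 0.39 for Chrnd and 0.95 ± 0.55 for Chrng, and without cKO replicate 2 they were 0.18 and 0.40. Chrne (chromosome 11, 70614883 to 70619216), the subunit of mature junctions, was at 81.7, 172.6 and 117.4 in controls and at 65.0, 232.1 and 152.5 in cKO animals. Its log2 fold change of 0.16 ± 0.48 had an interval from -0.93 to 1.24, and it turned negative without control replicate 1 (-0.11) or cKO replicate 2 (-0.25).

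The fetal and mature subunit genes were both present in every library. Per kilobase of exon, the ratio of Chrng to Chrne was 0.594, 0.355 and 1.13 in the control and 1.32, 1.33 and 0.718 in the cKO libraries. The ratios overlapped between the groups. The exon length of Chrng, 4163 bases, sums the exons of all its annotated transcripts, so a ratio over 1 transcript of each gene would differ. In cKO replicate 2, 8 of the 10 genes had their highest value of all 6 libraries, and the exceptions were Myod1 and Myf6.

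Levels of different genes were compared as normalised reads per kilobase of exon. For each gene this length sums the exons of all its annotated transcripts, so the order over 1 transcript of each gene could differ. The level of Chrna1 also carries the uncertainty of its resembling stretches. In controls the order of the means was Myf6 (608 ± 143, SD, n = 3), Myog (567 ± 244), Chrnb1 (393 ± 99.1), Chrna1 (106 ± 18.5), Chrne (73.3 ± 27.1), Chrnd (58.1 ± 16.7), Myod1 (51.4 ± 9.39), Chrng (47.9 ± 27.0), Myf5 (15.99 ± 5.35) and Pax7 (8.48 ± 1.15). The ranges of the first 3 overlapped from neighbour to neighbour, as did those from Chrna1 to Chrng. Chrnb1 lay above Chrna1, Chrng above Myf5 and Myf5 above Pax7 in every control library. In the cKO group Myod1, at 136 ± 5.55 per kilobase, was the fifth by mean, after Chrna1 (198 ± 57.9) and before Chrng (99.3 ± 72.2), Chrnd (96.6 ± 56.1) and Chrne (88.7 ± 49.4). Chrna1 and Myod1 did not overlap there, while Myod1 lay within the range of Chrng.

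**Figure D2:**
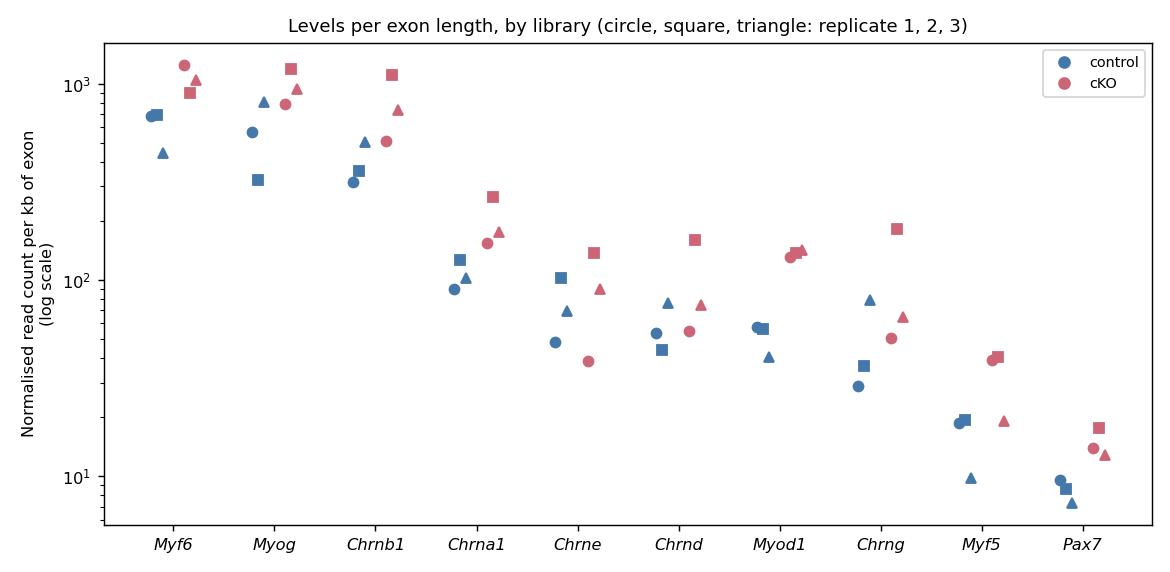
Normalised read count per kilobase of exon (y axis, log scale) of each gene in each library, ordered by the control mean. Myf6, Myog and Chrnb1 form the upper group, at 315.1 to 811.7 in controls, and Pax7 is lowest at 7.3 to 9.6.

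The difference of Myod1 was set beside that of 29 structural genes of skeletal muscle (actin, myosin, troponin, Z-disc and giant filament genes), of which 28 were tested. Tnnc2, the fast troponin C gene, had at most 10 reads in a library and did not pass the filter. The troponin genes Tnni2 and Tnnt3 had at least 45876 and 44466 reads in every library. The cause of the low Tnnc2 count was not tested. The median log2 fold change of the 28 was 0.75, and 27 of the 28 had a smaller fold change than Myod1. The exception was Myh4, the fastest myosin heavy chain, at 1.53 ± 0.66. The control libraries held 18685.1, 100693.4 and 27372.6 of it, the cKO libraries 65697.6, 172909.6 and 108146.0, and the groups overlapped. The next largest were Mylpf at 0.99 ± 0.21 and Myl1 at 0.94 ± 0.23, both myosin light chains of fast fibres. The smallest were Tcap at -0.26 ± 0.29, Lmod2 at 0.05 ± 0.21 and Myot at 0.42 ± 0.23. Of the 28 point estimates, 9 lay at or above the lower end of the Myod1 interval and 19 lay below it. The unadjusted limma p was under 0.05 for 23 of the 28, all higher, against 6.11% of all tested genes in that direction. In 14 of the 28 the cKO libraries lay above all controls, against 9.04% of all tested genes. The list was chosen with earlier results of these data known, so nothing is read from these counts. The fit called 1 of the 28, Tmod4, a cap of thin filaments, beside 0.276% of all tested genes called higher. Tmod4 rose from 3409 ± 302 (SD, n = 3) to 6501 ± 753 (log2 fold change 0.93 ± 0.17, limma adjusted p = 0.0373). Tmod4 was not called without control replicate 3 (adjusted p = 0.0651) or without cKO replicate 1, 2 or 3 (0.0852, 0.217 and 0.239), nor with total-count scaling (0.0871).

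**Figure D3:**
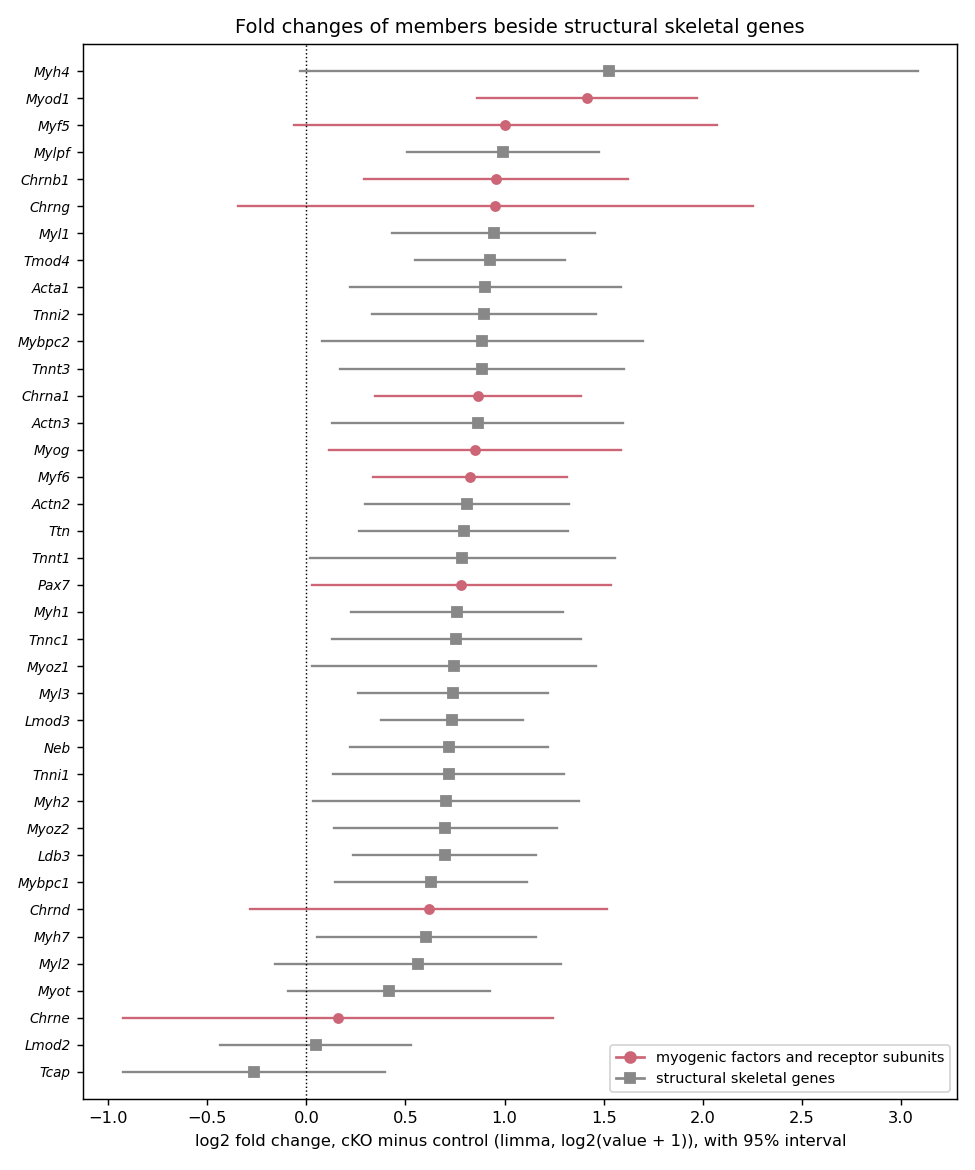
Log2 fold change between cKO and control (x axis, limma on log2(value + 1)) with its 95% interval for the 10 genes (circles) and 28 structural genes (squares). Myod1 at 1.41 lies below Myh4 at 1.53 and above every other gene drawn, and the intervals of 26 of the 28 structural genes reach into the Myod1 interval.

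Within each library, Myod1 was then expressed as a log2 ratio to the mean log2 value of the 28 structural genes. The ratio was -6.65, -6.97 and -7.27 in the control and -6.05, -6.37 and -6.42 in the cKO libraries. All cKO ratios lay above all control ratios. The means were -6.96 ± 0.31 and -6.28 ± 0.20 (SD, n = 3), a difference of 0.68 on the log2 scale, while the structural mean itself differed by 0.73. Without 1 library at a time the difference was 0.53 to 0.84, and in each case the groups stayed apart. It was 0.56 against the summed structural values, 0.50 against the fast-fibre genes alone and 0.67 against 15 excitation-contraction coupling genes, and with each of these 3 references the groups overlapped. No test is given, because Myod1 had been chosen for its rise.

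None of the other 9 genes had ratios to the structural mean that separated the groups. Their differences between cKO and control were 0.27 for Myf5, 0.23 for Chrnb1, 0.22 for Chrng, 0.13 for Chrna1, 0.12 for Myog, 0.10 for Myf6 and 0.05 for Pax7. They were -0.11 for Chrnd and -0.57 for Chrne. For Pax7 the ratios were -7.57, -8.01 and -8.08 in the control and -7.61, -7.68 and -8.22 in the cKO libraries. For Chrna1 they were -4.77, -4.57 and -4.71 in the control and -4.57, -4.19 and -4.89 in the cKO libraries. Thus Pax7, Myf6, Chrna1 and Chrnb1, which separated the groups in normalised reads, overlapped once set against structural genes.

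**Figure D4:**
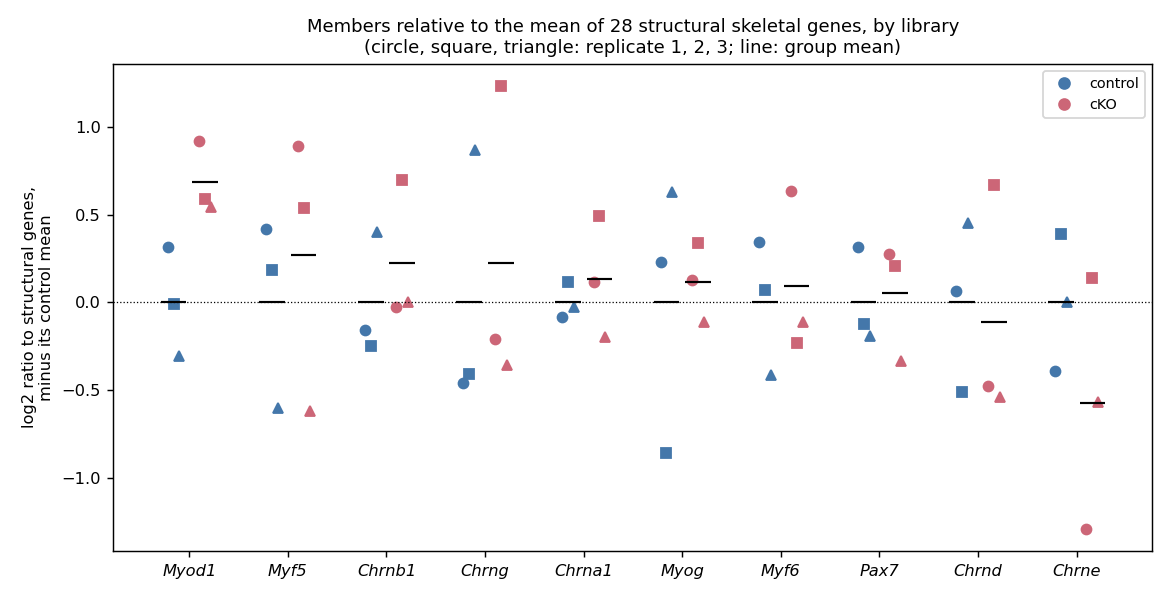
Log2 ratio of each gene to the mean of 28 structural skeletal genes in the same library, minus its control mean (y axis), with lines at the group means. Myod1, with group means 0.68 apart, is the gene drawn whose 3 cKO points lie above all control points.

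The rest of the myogenic network was read from a list of 27 other regulators, of which 26 were tested. Limma at an adjusted p under 0.05 found that 1 rose and 1 fell, and 24 did not pass, beside 0.276% of all tested genes higher and 0.889% lower. The median log2 fold change was 0.17. Vgll2, a TEAD cofactor of skeletal muscle, rose from 640.1, 464.6 and 526.7 in controls to 1191.2, 976.1 and 1539.1 in cKO animals (log2 fold change 1.17 ± 0.21, limma adjusted p = 0.0358). Id2, an inhibitor that binds the partners of myogenic factors, fell from 552.3, 517.7 and 524.9 to 283.4, 269.1 and 233.1 (-1.02 ± 0.17, limma adjusted p = 0.03). Neither gene overlapped between the groups. Vgll2 was called only without control replicate 1 among the fits that leave out a library (adjusted p = 0.0672 and 0.0545 without control replicates 2 and 3, and 0.133, 0.0813 and 0.2 without cKO replicates 1 to 3). Id2 was not called without control replicate 2 (0.0539) or cKO replicate 1, 2 or 3 (0.0906, 0.144 and 0.191). With total-count scaling Id2 was at an adjusted p of 0.0535, and with limma-voom Vgll2 was at 0.0509. Tead4, a DNA-binding TEAD factor, had a log2 fold change of 0.93 ± 0.27 (limma adjusted p = 0.165). Mef2c, a partner of myogenic factors, was at 0.46 ± 0.16 (limma adjusted p = 0.249).

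At the neuromuscular junction, 18 genes were listed and 16 tested, and limma called 0. The count at an unadjusted p under 0.05 was 4, against 13.7% of all genes tested. Called genes numbered 2 by DESeq2, 0 by edgeR and 0 by limma-voom, tools that called 5.26%, 0.926% and 0.619% of all genes in either direction. The median log2 fold change of the 16 tested genes was 0.05. Rapsn, whose product clusters the receptor under the nerve ending, was at 176.8, 306.5 and 258.0 in controls and at 511.1, 555.8 and 493.9 in cKO animals. These groups did not overlap, and the log2 fold change of 1.11 ± 0.23 had a limma adjusted p of 0.0602. This limma adjusted p was 0.0426, 0.0443 and 0.0663 without control replicates 1 to 3. Without cKO replicates 1 to 3 it was 0.184, 0.2905 and 0.255. Scn4a, the muscle sodium channel, was at 0.89 ± 0.27. Erbb3, a neuregulin receptor that Schwann cells also express, was at -0.81 ± 0.23, and Utrn, the synaptic relative of dystrophin, at -0.58 ± 0.17. The list genes Chat and Slc18a3, of cholinergic neurons, did not pass the filter on low reads. They had no read in any cKO library or in control replicate 1. In control replicates 2 and 3 Chat had 1 and 74 reads, and Slc18a3 had 34 and 146.

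Genes of satellite cells and of fibre formation gave no call by limma among 20 tested. The unadjusted p was under 0.05 for 3, against 13.7% of all genes tested. Called genes numbered 1 by DESeq2, 0 by edgeR and 0 by limma-voom, against 5.26%, 0.926% and 0.619% of all genes. The median log2 fold change was 0.23, with 12 genes above 0 and 8 below. Cdh15, the muscle cadherin, was at 230.4, 283.1 and 357.6 in the control libraries and at 397.7, 838.6 and 545.8 in the cKO libraries. The groups did not overlap, with a log2 fold change of 0.99 ± 0.29. Notch3, a receptor of satellite and mural cells, was at 0.54 ± 0.16. The fusion genes Mymx and Mymk were at 0.70 ± 0.31 and 0.82 ± 0.42. Both fusion genes were highest in cKO replicate 2, as were the receptor subunits. Mymk was at 293.8, 240.0 and 451.0 in controls and at 325.2, 1028.8 and 528.2 in cKO animals.

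Genes known to be induced when muscle loses its nerve gave no call by limma among 12 tested of 13. The unadjusted p was under 0.05 for 2, against 13.7% of all genes tested. Called genes numbered 2 by DESeq2, 0 by edgeR and 0 by limma-voom, against 5.26%, 0.926% and 0.619% of all genes. Runx1, a transcription factor of denervated muscle, was at 471.9, 383.8 and 507.1 in controls and at 605.8, 825.0 and 800.0 in cKO animals (0.71 ± 0.19, limma adjusted p = 0.143). The ubiquitin ligase gene Trim63 was at 0.73 ± 0.34 and Fbxo30 at -0.41 ± 0.21, and Gdf5, a secreted growth factor, was at -2.30 ± 0.81. The median log2 fold change of this list was 0.26. Genes of excitation-contraction coupling, 15 in all, gave no call by limma. The unadjusted p was under 0.05 for 10, against the same 13.7% of all genes tested. Called genes numbered 5 by DESeq2, 0 by edgeR and 0 by limma-voom, against the same shares of all genes. Casq1, the calcium store protein, was at 1.01 ± 0.22, Stac3 at 0.84 ± 0.18, and the calcium channel subunit genes Cacnb1 and Cacng1 at 0.65 ± 0.16 and 0.81 ± 0.24. The median of that list was 0.84, close in value to the 0.86 of the 10 genes.

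The protein-coding genes whose log2 values over the 6 libraries followed those of Myod1 most closely were Timm10, Timm50, Ppp1r3c, Dusp22, P2ry2 and Adsl, with Pearson's r from 0.996 for Timm10 to 0.989 for Adsl. Each of the 6 separated the groups, so the coefficients mostly restate that separation, and the points of each gene come from the same 6 libraries, which also differ in their share of skeletal muscle transcripts. Their log2 fold changes were 0.54 for Timm10, 0.60 for Timm50, 1.69 for Ppp1r3c, 0.47 for Dusp22, 0.91 for P2ry2 and 0.48 for Adsl. Ppp1r3c, which directs a phosphatase to glycogen, was at 1082.7, 1052.4 and 663.7 in controls and at 2509.8, 3434.4 and 2959.0 in cKO animals. Of the other 9 genes described here, Pax7 ranked nearest to Myod1, at place 110 with r = 0.943, and Chrne ranked last, at place 5911 with r = 0.146.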

How the data were processed

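Total RNA of each uterus was extracted with Trizol, per the labels' protocols. Per the submitters' processing notes, HISAT2, SAMtools and featureCounts were used with the build GRCm39. The sources used here do not give strand or multiple-match settings. Of 25988 genes found in GENCODE vM21, 25205 had identical GRCm38 coordinates and strand in the deposited table, so coordinates are read as GRCm38. None of the 10 genes shares exon bases with another gene there.

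Each deposited signal value is a count for 1 gene over the size factor of its library, a division made by the authors. In each library 100% of values were whole multiples of 1 step within 0.01 reads, and dividing by it gave whole reads. The table also gives the authors' log2 fold changes and p-values. The authors' deposited gene length, of unit other, equals the GENCODE exon length for the 10 genes. Symbols turned into dates (24) were restored by identifier.

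Genes passing edgeR 4.0.16 filterByExpr were tested with limma 3.58.1 (R 4.3.3) on log2(value + 1), with trend and robust empirical Bayes, 3 against 3 libraries, without covariates, two-sided, with Benjamini-Hochberg adjustment. The added 1 shrinks fold changes of genes with few reads. The planned edgeR test for raw counts became an alternative because the values are normalised. It called 31 genes higher and 120 lower on the recovered reads. DESeq2 1.42.0, limma-voom, other scalings, filters and pseudocounts, a replicate block and omission of each library were also tried. Near-identical transcripts were sought with blastn 2.17.0 (at least 95% identity over 100 bases). Libraries differed by more than sampling noise. The limit for 0 reads is 3 reads and covers counting error only.

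The members and lists were chosen with earlier results of these data known. Named genes are the 10 genes, Tcf21, up to 4 genes with the smallest p of each list, the 3 largest and 3 smallest structural fold changes, and the 6 genes most like Myod1. Chat, Slc18a3, Foxa2, Chrna3, Chrnb4, Tnni2 and Tnnt3 were named after their values were seen.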

Additional observations from a re-analysis of the deposited data

How the results depend on the processing

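The log2 fold change of Myod1 stayed between 1.255 and 1.505 under all 17 alternatives tried for it. The difference between Myod1 and the structural genes was 0.50 to 0.84 over 13 alternatives, which changed the reference, the pseudocount or the libraries and not the tool, scaling, filter or block. The number of structural genes with a smaller fold change than Myod1 was 27 or 28 throughout. With 1 library left out, the other fold changes ranged from 0.50 to 1.16 for Myog, 0.69 to 1.35 for Myf5, 0.61 to 0.94 for Myf6, 0.66 to 0.88 for Pax7, 0.64 to 1.02 for Chrna1, 0.67 to 1.23 for Chrnb1, 0.18 to 0.94 for Chrnd, 0.40 to 1.38 for Chrng and -0.25 to 0.66 for Chrne. Without control replicates 1 and 3 together, an alternative chosen after seeing the data that leaves control replicate 2 alone and assumes that it varies like the other libraries, Myog was at 1.56 and Chrne at -0.38.

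Limma called 45 genes higher and 145 lower. These counts were 280 and 578 with DESeq2, 19 and 82 with limma-voom, 271 and 504 without control replicates 1 and 3, and 121 and 253 at an adjusted p under 0.1. Higher genes numbered 12 with total-count scaling and 82 with no filter on low reads. With 1 library left out they numbered 1 to 117 higher and 42 to 347 lower. Of the 10 genes, DESeq2 called 4, the fit without control replicates 1 and 3 called 2, and 0 to 1 were called with 1 library left out. With the replicate block 0 of the 10 were called (Myod1 adjusted p = 0.0592), and of the other regulators Vgll2 was called (0.0308) and Id2 was not (0.0581). Tmod4 was not called with the block (0.0535). Without control replicates 1 and 3 neither Id2 (0.0512) nor Tmod4 (0.0516) was called. Same-numbered libraries did not deviate together from their group means (r = 0.0084, -0.18 and 0.044 across genes). With 3 libraries per group this cannot show whether same-numbered animals were paired.

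Junction genes called numbered 2 with DESeq2, 1 with no filter, 1 at an adjusted p under 0.1 and 0 to 2 with 1 library left out. Other regulators numbered 1 with the replicate block, 1 with limma-voom, 1 with total-count scaling, 4 without control replicates 1 and 3 and 0 to 3 with 1 library left out. Satellite cell genes numbered 1 with DESeq2, and denervation genes 2 with DESeq2 and 1 without control replicates 1 and 3. Coupling genes numbered 5 with DESeq2, 2 with no filter, 3 at adjusted p under 0.1 and 0 to 5 with 1 library left out. Receptor subunits other than those of muscle numbered 0 to 2 with 1 library left out. The cause of these changes was not tested. A fit without 1 library has fewer degrees of freedom. Myf5 and Pax7, with the fewest reads, are the genes whose values counting error limits most.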

Other observations

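Acetylcholine receptor subunit genes other than those of muscle were read as a separate list. Of 11 listed genes 9 were in the table and 2, Chrna10 and Chrnb2, passed the filter on low reads. Chrna10 was at 67.1, 115.9 and 105.9 in the control libraries and at 114.3, 218.4 and 167.9 in the cKO libraries, with its highest value in cKO replicate 2, as for the muscle subunits. The log2 fold change of Chrna10 was 0.78 ± 0.34 (SE), at a limma adjusted p of 0.359, and that of Chrnb2 was -0.33 ± 0.43. Limma called neither, and edgeR, DESeq2 and limma-voom called 0 of the list. Chrna3 and Chrnb4, the receptor genes of autonomic ganglia, were at 1.2, 25.2 and 293.6 and at 0, 25.2 and 163.7 in controls, and had no read in any cKO library. Most of their reads (330 and 184) lay in control replicate 3, the library with the highest share of autonomic and enteric neuron markers. Control replicate 1 had 1 read of Chrna3 and 0 of Chrnb4.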
